A study of Mus musculus with 6 samples.

Results

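RNA sequencing of mouse intestinal crypt stem cells was examined for 10 genes that mark or control the Wnt-driven crypt stem cell: Lgr5, Lgr4, Smoc2, Ascl2, Olfm4, Lrig1, Tnfrsf19, Axin2, Rnf43 and Znrf3. They were taken from the deposited table of 28752 genes by name, all 10 had a row, and all 10 were among the 18348 genes with enough counts to be tested. The table holds 3 vector samples, whose genotype is labelled WT, and 3 samples labelled circEZH2_005 overexpression, in which an adenovirus carried circEZH2_005, a circular RNA named for the Ezh2 gene. The cells of every sample were labelled intestinal crypt stem cells. By the general methods of the study, Lgr5+ intestinal stem cells (ISCs) were sorted by flow cytometry from Lgr5-GFP mice and grown into organoids with IntestiCult medium. In these mice green fluorescent protein reports Lgr5. Every sample was labelled as hypoxia/reoxygenation (H/R), with 72 h of infection followed by 4 h at 2% O2, so the H/R treatment was common to both groups, and no sample at normal oxygen entered the comparison. All animals of the study were male, by its reporting summary. The age of the Lgr5-GFP mice, the length of the reoxygenation and the way GFP was placed at Lgr5 were not given in the sources used here. The study states in general terms that its experiments used independent biological replicates, whereas the labels do not say whether the 3 samples of a group came from separate mice or cultures, so the p-values measure only the spread between these samples.

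Intestinal stem cells sit at the crypt base and renew the epithelium under Wnt signals. A Wnt ligand binds a Frizzled receptor with an LRP co-receptor, which lets beta-catenin accumulate and act with TCF/LEF factors on target genes. Lgr4 and Lgr5 are receptors for R-spondins, and R-spondin binding removes the ubiquitin ligases Rnf43 and Znrf3, which otherwise clear Frizzled from the surface. Rnf43, Znrf3 and Axin2, a scaffold of the complex that degrades beta-catenin, are themselves Wnt targets and act as negative feedback. Ascl2 is a transcription factor of the stem cell, Smoc2 a secreted matricellular protein, Olfm4 a secreted glycoprotein, Lrig1 a membrane inhibitor of ErbB signalling and Tnfrsf19 (Troy) a receptor of the tumour necrosis factor family.

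Total counts ran from 71506487 to 79919893 per sample, and no pair of samples had the same count in more than 0.871% of the genes with 10 or more counts in either. Levels of single genes are given as CPM, in which TMM factors bring every library to one size. Besides epithelial genes, the samples held markers of differentiated cells and of leukocytes, although the methods of the study start from sorted stem cells. Bulk RNA cannot tell fewer cells of a type from less RNA per cell. The overexpressed circular RNA was not analysed here, because the table lists genes and the libraries were selected with oligo(dT), which leaves the labels of overexpression without a check.

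Promoter sequences were looked at first, since Wnt target genes are reached through TCF/LEF sites. RefSeq (build GRCm38.p6) gave windows from 250 bases before to 50 bases after a transcription start for 7 of the 10 genes, 9 windows in all. Lgr5, Smoc2 and Znrf3 had no window and were not searched. The TCF/LEF letters CTTTGAA and CTTTGAT were searched on both strands, where they read TTCAAAG and ATCAAAG. One or other of them was present in 8.65% of all 32851 RefSeq windows of 300 bases, and in 1 of the 9 windows of these genes, an internal start of Tnfrsf19. Of the windows, 3 are printed here because they belong to a gene that was lower (Ascl2) and a gene that was higher (Axin2) on average with circEZH2_005, and to the Tnfrsf19 start, whose matching letters are in capitals. All are written 5′ to 3′ along the strand of the gene.
Ascl2 (chr7:142969215-142969514, minus strand): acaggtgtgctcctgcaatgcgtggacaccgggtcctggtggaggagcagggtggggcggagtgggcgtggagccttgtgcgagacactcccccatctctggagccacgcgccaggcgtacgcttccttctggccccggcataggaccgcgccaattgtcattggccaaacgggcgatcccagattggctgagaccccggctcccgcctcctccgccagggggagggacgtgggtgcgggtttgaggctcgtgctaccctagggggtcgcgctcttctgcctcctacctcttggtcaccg
Axin2 (chr11:108920099-108920398, plus strand): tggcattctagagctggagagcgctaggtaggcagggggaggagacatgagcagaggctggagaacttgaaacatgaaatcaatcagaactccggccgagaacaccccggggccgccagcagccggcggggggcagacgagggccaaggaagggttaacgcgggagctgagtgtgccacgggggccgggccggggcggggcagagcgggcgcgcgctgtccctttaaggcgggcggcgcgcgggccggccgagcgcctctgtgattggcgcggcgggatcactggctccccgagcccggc
Tnfrsf19 (chr14:61037938-61038237, minus strand): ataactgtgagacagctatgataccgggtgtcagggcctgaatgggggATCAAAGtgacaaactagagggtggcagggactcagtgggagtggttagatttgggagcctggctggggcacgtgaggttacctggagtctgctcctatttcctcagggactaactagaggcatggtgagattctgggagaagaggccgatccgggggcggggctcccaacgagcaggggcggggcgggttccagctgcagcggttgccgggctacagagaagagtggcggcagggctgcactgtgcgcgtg
The capitals ATCAAAG begin at base 49 of the Tnfrsf19 window and are CTTTGAT on the other strand. The Ascl2 window held 67.0% G and C, the Axin2 window 70.0% and the Tnfrsf19 window 60.7%. A match is a description of letters, and its absence says only that these letters are not in the window.

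With circEZH2_005, Lgr5 and Smoc2 were lower than in the vector samples, Ascl2, Tnfrsf19, Lrig1 and Znrf3 were below every vector sample without passing the test, and Axin2 and Rnf43 were higher on average within the spread of the samples. At an adjusted p-value under 0.05 (quasi-likelihood test of edgeR, Benjamini-Hochberg over all 18348 genes), 2 of the 10 genes were lower and 0 were higher, against 0.986% lower and 2.69% higher over all genes tested. At an unadjusted p under 0.05 the counts were 5 and 0, against 9.72% and 14.0% of all genes. DESeq2 called 4 lower and 0 higher, against 4.26% and 9.65% of the genes to which it gave an adjusted p. Limma on log2(FPKM + 1) called 1 lower and 0 higher, against 2.74% and 2.79% of the genes it tested. The 3 circEZH2_005 samples lay below all 3 vector samples for 6 of the 10 genes and above them for 0, against 14.2% and 16.4% of all genes tested. None of the 10 reached a fold change under 0.5 or over 2 with an unadjusted p-value under 0.05, a rule met by 1.34% of genes on the lower and 6.22% on the higher side. Their median log2 fold change was -0.42, against 0.00 for all genes tested, with 8 negative and 2 positive values. An exact two-sided permutation test of each gene cannot go below p = 0.1 with 3 samples per group, and the 6 genes without overlap had that value.

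**Figure D1:**
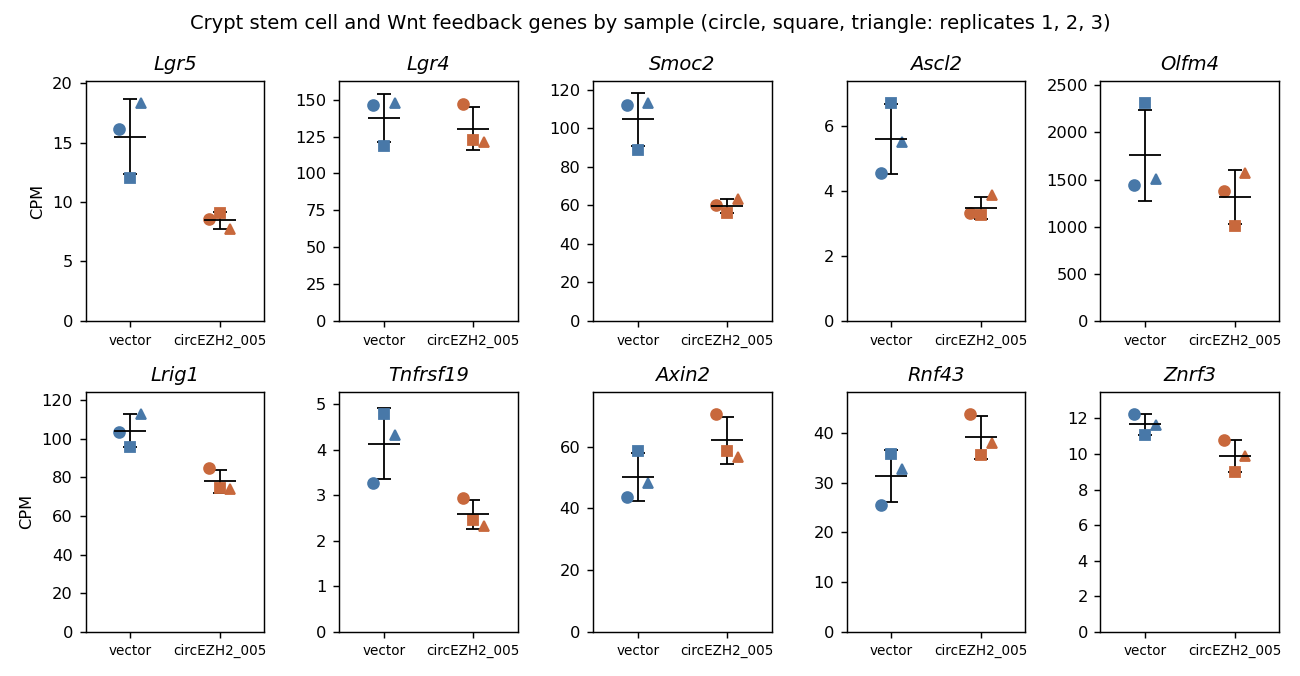
TMM-scaled CPM (y axis, from 0) of each of the 10 genes in the vector and circEZH2_005 samples. Points are single samples, shaped by replicate number, and lines with bars are the group mean and SD (n = 3). For Lgr5 and Smoc2 the lowest vector sample is above the highest circEZH2_005 sample, whereas Lgr4, Olfm4, Axin2 and Rnf43 overlap.

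Lgr5, the R-spondin receptor that marks the stem cell, lies on chromosome 10 (115450311 to 115587780, minus strand, GRCm38). Vector 1 to 3 had 1167, 901 and 1436 counts, and circEZH2_005 1 to 3 had 680, 677 and 552 counts. As CPM these were 16.1, 12.1 and 18.3 against 8.55, 9.10 and 7.70. Every circEZH2_005 sample was below every vector sample, and vector 2 was the lowest of its group. The fitted log2 change was -0.88 (SE, the standard error, 0.18, adjusted p = 0.0434 from edgeR), a group mean of 15.5 ± 3.19 CPM (SD, n = 3) against 8.45 ± 0.702 (SD, n = 3). The call depended on the libraries: the adjusted p of edgeR was 0.00786 without vector 2, but 0.158 without vector 1, 0.166 without vector 3, 0.0714 without circEZH2_005 sample 1, 0.126 without sample 2 and 0.103 without sample 3. It also ended without a filter on low counts (adjusted p = 0.0804), with a replicate block (0.0970) and with limma on log2(FPKM + 1) or log2(FPKM + 0.1) (0.0572 and 0.0578). Lgr5 thus passed in 4 of the 13 alternative fits, while its log2 fold change was negative in all 13, from -1.03 to -0.48. The value of -0.48 came from limma on log2(FPKM + 1), whose pseudocount is near the FPKM of Lgr5. With a pseudocount of 0.1 it was -0.86. A gene on the other strand, A930009A15Rik, overlaps Lgr5 over 12463 bases, and it had at most 2 counts in any sample.

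Lgr4, the broadly expressed relative of Lgr5 (chromosome 2, 109917647 to 110014257, plus strand), had 146, 119 and 148 CPM in the vector samples and 147, 123 and 121 CPM in the circEZH2_005 samples. The groups covered the same range. Its fitted log2 change was -0.08 (SE 0.12, adjusted p = 0.755 from edgeR). The difference between the 2 receptors was read within each library as the ratio of their counts, which does not depend on library scaling. Lgr5 had 0.110, 0.102 and 0.124 counts for each Lgr4 count in the vector samples and 0.0582, 0.0740 and 0.0635 in the circEZH2_005 samples. The 2 ranges of the ratio did not overlap.

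Smoc2 (chromosome 17, 14279506 to 14404790, plus strand) had 112, 88.9 and 113 CPM in the vector samples and 60.1, 56.0 and 63.1 CPM with circEZH2_005. As with Lgr5, vector 2 was the lowest of the vector samples and still lay above all circEZH2_005 samples. Its fitted log2 change was -0.81 (SE 0.11, adjusted p = 0.0203 from edgeR), from 105 ± 13.7 to 59.8 ± 3.58 CPM (SD, n = 3 each). It passed in 9 of the 13 alternative fits and was lost without vector 1 (adjusted p = 0.0976), vector 3 (0.103), circEZH2_005 sample 2 (0.0806) or sample 3 (0.0520). The antisense gene 4930474M22Rik overlaps it, with between 6 and 20 counts per sample, and the counting was not stated to use strand.

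Ascl2 (chromosome 7, 142966829 to 142969264, minus strand) was among the genes with few counts, 331, 502 and 431 in the vector samples and 264, 243 and 278 with circEZH2_005. These were 4.57, 6.72 and 5.51 CPM against 3.32, 3.27 and 3.88 CPM. The groups did not overlap, and here vector 2 was the highest sample instead of the lowest. The log2 fold change of -0.68 (SE 0.20) had an adjusted p of 0.0921 from edgeR and did not pass. DESeq2 called it (adjusted p = 0.0281), the only one of the 13 alternatives that did.

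Lrig1 (chromosome 6, 94604529 to 94700158, minus strand) had 104, 96.0 and 113 CPM in the vector samples and 85.1, 74.7 and 74.0 CPM with circEZH2_005, again without overlap. Its fitted log2 change was -0.42 (SE 0.10), and its adjusted p of 0.0570 from edgeR was just over the threshold. It passed in 4 of the 13 alternatives: DESeq2 (adjusted p = 0.00795), a stricter filter (0.0480), and without vector 2 (0.0349) or circEZH2_005 sample 1 (0.0467). Its end overlaps that of Slc25a26, on the other strand, over 144 bases.

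Tnfrsf19 (chromosome 14, 60963875 to 61046490, minus strand) had the fewest counts of the 10, 237, 358 and 338 against 234, 183 and 167. As CPM the vector samples were at 3.27, 4.79 and 4.32 and the circEZH2_005 samples at 2.94, 2.46 and 2.33. The gap between the lowest vector sample and the highest circEZH2_005 sample was narrow, and the log2 fold change of -0.68 (SE 0.22) had an adjusted p of 0.113 from edgeR. None of the 13 alternatives called it.

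Olfm4 (chromosome 14, 79984081 to 80023139, plus strand) was by far the most abundant of the 10. It had 445, 732 and 473 FPKM (fragments per kilobase of exon, scaled for library size, as the authors deposited them) in the vector samples and 435, 282 and 448 FPKM in the circEZH2_005 samples. Vector 2 stood above its group and circEZH2_005 sample 2 below its own, and the remaining 4 samples lay together. The log2 fold change of -0.42 (SE 0.22, from CPM) was as large as that of Lrig1, but the spread was wider and the adjusted p was 0.314 from edgeR. Leaving out single libraries moved it between -0.56 and -0.17, the latter without vector 2. The lincRNA Gm6999 overlaps it on the same strand, with between 1 and 20 counts.

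**Figure D2:**
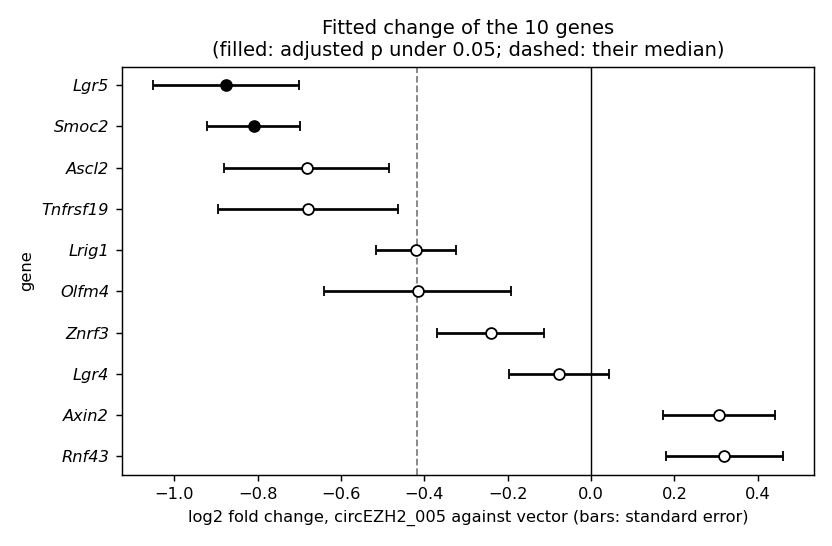
Fitted log2 fold change of circEZH2_005 against vector (x axis) for each gene (y axis), with standard errors as bars. Filled points passed an adjusted p of 0.05 and the dashed line is the median of the 10, -0.42. Lgr5 and Smoc2 are the filled points at the negative end, and Axin2 and Rnf43 are the positive ones.

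Among the feedback genes, Axin2 (chromosome 11, 108920349 to 108950783, plus strand) had 43.7, 58.7 and 48.1 CPM in the vector samples and 70.8, 58.7 and 56.6 CPM with circEZH2_005. Vector 2 reached the level of circEZH2_005 samples 2 and 3, so the groups overlapped. The fitted log2 change was 0.31 (SE 0.13, adjusted p = 0.219 from edgeR). Axin2 is widely used as a readout of Wnt signalling.

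Rnf43 (chromosome 11, 87662722 to 87735539, plus strand) had 25.6, 35.7 and 32.8 CPM in the vector samples and 43.9, 35.6 and 37.9 CPM with circEZH2_005. Its samples ranked much as those of Axin2 did, with vector 1 the lowest and circEZH2_005 sample 1 the highest of the 6. The fitted log2 change was 0.32 (SE 0.14, adjusted p = 0.222 from edgeR). A transcript inside an intron on the same strand, 1110028F11Rik, overlaps Rnf43 over 3936 bases and had between 8 and 48 counts.

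Znrf3, the partner of Rnf43 (chromosome 11, 5276324 to 5444847, minus strand), had 12.3, 11.1 and 11.7 CPM in the vector samples and 10.8, 8.96 and 9.87 CPM with circEZH2_005. The groups lay side by side without overlap, and the log2 fold change was -0.24 (SE 0.13, adjusted p = 0.305 from edgeR). The 2 ligases thus had fitted values of opposite sign, neither past the test. Rnf43 counts were 2.08, 3.23 and 2.82 times those of Znrf3 in the vector samples and 4.08, 3.98 and 3.84 times in the circEZH2_005 samples, ranges that did not overlap. 

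Lgr5 and Smoc2 were also set against Axin2 within single libraries. For each Axin2 count there were 0.369, 0.205 and 0.381 Lgr5 counts in the vector samples and 0.121, 0.155 and 0.136 in the circEZH2_005 samples. For Smoc2 the ratio to Axin2 was 2.57, 1.51 and 2.35 in the vector samples and 0.850, 0.954 and 1.12 with circEZH2_005. On the log2 scale the mean difference was -1.17 for Lgr5 and -1.11 for Smoc2. The 4 ratios in all, these and those of Lgr5 to Lgr4 and of Rnf43 to Znrf3, were chosen after the values of the genes had been seen and were not tested.

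The levels of the genes were compared with each other as FPKM, which divides by length. In the vector samples the order was Olfm4 (550 ± 158 FPKM, SD, n = 3), Lgr4 (21.6 ± 2.38), Lrig1 (17.3 ± 1.38), Smoc2 (13.9 ± 1.70), Axin2 (8.43 ± 1.41), Rnf43 (4.43 ± 0.794), Ascl2 (3.19 ± 0.658), Lgr5 (1.39 ± 0.280), Znrf3 (1.36 ± 0.052) and Tnfrsf19 (0.803 ± 0.162). Lgr5 and Znrf3 did not differ beyond their spread, and the values of Rnf43 and Ascl2 overlapped between samples. With circEZH2_005, neighbours changed places at 2 points of the order. Axin2 (9.86 ± 1.84 FPKM) came above Smoc2 (7.49 ± 0.694), and Znrf3 (1.09 ± 0.165) above Lgr5 (0.713 ± 0.0723), in both cases without overlap between the samples.

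The length used in the FPKM matters for these levels. The deposited values correspond to the union of all annotated exons, which for Lgr5 is 10264 bases against 4793 for its longest GENCODE transcript, a factor of 2.14. The factor was 1.75 for Smoc2, 1.52 for Rnf43 and between 1.01 and 1.29 for the other 7. Per kilobase of longest transcript, Lgr5 was at 3.24 ± 0.665 CPM in the vector samples and 1.76 ± 0.147 with circEZH2_005 (SD, n = 3 each), and Znrf3 at 1.85 ± 0.0969 and 1.56 ± 0.143. On that scale Lgr5 stayed above Znrf3 on average, and Smoc2 (15.0 ± 0.901) lay level with Axin2 (14.6 ± 1.79) with circEZH2_005, so both changes of order rest on the exon union length. The order on that scale was not fixed either. Smoc2 (26.4 ± 3.46) was above Lrig1 (21.1 ± 1.74) in the vector samples, and with circEZH2_005 it lay level with Lrig1 (15.7 ± 1.25). The fold changes fitted to counts do not depend on the length of a gene. Those of limma on FPKM do, through the pseudocount added before the logarithm.

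**Figure D3:**
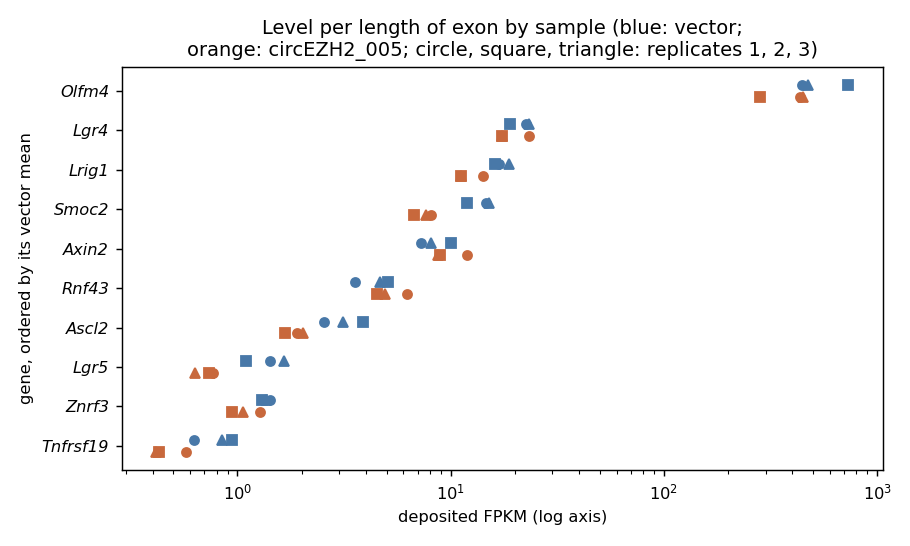
Deposited FPKM (x axis, log scale) of the 10 genes (y axis, ordered by the vector mean) in single samples. Blue points are vector and orange points circEZH2_005 samples, shaped by replicate number. Olfm4 is more than an order of magnitude above the rest, and Lgr5 falls below Znrf3 in the orange points.

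The rest of the Wnt pathway and of the crypt stem cell programme was read from 6 lists of 101 genes, 91 of which had a row in the table and 75 were tested. In all, 2 of the 75 were higher and 6 were lower at an adjusted p under 0.05 by edgeR. Over all genes tested the shares were 2.69% higher and 0.986% lower, so higher genes were about as frequent in the lists as among all genes. The counts changed with the libraries: without vector 1, vector 3, circEZH2_005 sample 2 or circEZH2_005 sample 3 none was higher and 0, 0, 1 and 2 were lower, while without circEZH2_005 sample 1 the counts were 1 and 5, and without vector 2 they were 2 and 8.

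The lower genes were mostly in the list of other crypt stem cell genes. All 14 of these were tested, all 14 had a negative log2 fold change, 4 were lower, 0 were higher and 9 had circEZH2_005 samples below every vector sample. DESeq2 called 9 of them lower and limma 6. Their median log2 fold change was -0.54, against 0.00 for all genes tested. Of the genes each method tested, edgeR called 0.986% lower, DESeq2 4.26% and limma 2.74%. In 14.2% of the genes tested by edgeR the circEZH2_005 samples lay below every vector sample. Aqp4, a water channel, had 74.2, 60.6 and 79.5 CPM in the vector samples and 31.7, 23.0 and 31.9 CPM with circEZH2_005 (log2 fold change -1.31, SE 0.16, adjusted p = 0.0138 from edgeR). The RNA-binding protein Msi1 went from 16.4, 13.9 and 18.9 CPM to 6.54, 6.79 and 8.61 CPM (adjusted p = 0.0215). Prom1, the membrane glycoprotein CD133, had a log2 fold change of -0.75 (adjusted p = 0.0331), and the BMP co-receptor Rgmb one of -0.58 (adjusted p = 0.0284). For all 4 genes vector 2 was the lowest vector sample, as it was for Lgr5 and Smoc2. Clca3b, the most abundant of the list at a mean of 184 FPKM, had 647, 839 and 728 CPM against 664, 529 and 718 CPM, which overlapped (adjusted p = 0.425 from edgeR).

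Among 10 other Wnt target genes, 1 was higher, 1 was lower and 8 did not pass, with a median log2 fold change of -0.07. Ccnd1, cyclin D1 and the most abundant of the list, rose from 146, 189 and 160 CPM to 248, 231 and 250 CPM (log2 fold change 0.56, SE 0.11, adjusted p = 0.0412 from edgeR). The transcription factor Sox4 fell from 41.1, 34.1 and 50.6 CPM to 22.7, 17.9 and 20.2 CPM (log2 fold change -1.05, SE 0.16, adjusted p = 0.0235 from edgeR). In both genes the groups were apart, in opposite directions.

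Of 25 ligand genes and R-spondins, with the proteins that make and carry Wnt ligands, 18 had a row and 11 were tested. Only Wls, which carries Wnt proteins to the surface and was the most abundant of the list, passed, at 24.1, 28.0 and 26.9 CPM in the vector samples and 43.9, 38.6 and 38.3 CPM with circEZH2_005 (log2 fold change 0.61, adjusted p = 0.0263 from edgeR). The list median was -0.41, and no other gene of it exceeded 5.19 CPM in a sample.

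None of the 13 receptor genes tested passed by edgeR, 2 were lower at an unadjusted p under 0.05, DESeq2 called 1 lower and limma 0. Of all genes, 9.72% were lower at that unadjusted p by edgeR, and DESeq2 called 4.26% lower and limma 2.74%. The median log2 fold change of the 13 receptor genes was -0.20, and Fzd5, the most abundant, had 147, 130 and 159 CPM against 161, 159 and 154 CPM. The 7 inhibitors tested had a median of 0.03, and 1 of them was lower. This was Sfrp5, a secreted antagonist of Wnt ligands, at 1.60, 1.73 and 2.21 CPM against 0.365, 0.551 and 0.628 CPM (log2 fold change -1.84, SE 0.32, adjusted p = 0.0313 from edgeR). Kremen1, a receptor for Dkk proteins and the most abundant inhibitor, had 21.4, 17.0 and 22.0 CPM against 20.5, 22.6 and 18.6 CPM.

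None of 20 cytoplasmic and nuclear components tested passed by edgeR, and DESeq2 called 1 lower and limma 0. At an unadjusted p under 0.05 by edgeR, 1 was lower and 4 were higher, against 9.72% and 14.0% of all genes tested. The median log2 fold change of these components was 0.04, with single genes from -1.43 to 1.36. Ctnnb1, which encodes beta-catenin, had 874, 848 and 888 CPM in the vector samples and 804, 908 and 879 CPM with circEZH2_005. Its log2 fold change was -0.01 with a standard error of 0.09 (adjusted p = 0.963 from edgeR).

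**Figure D4:**
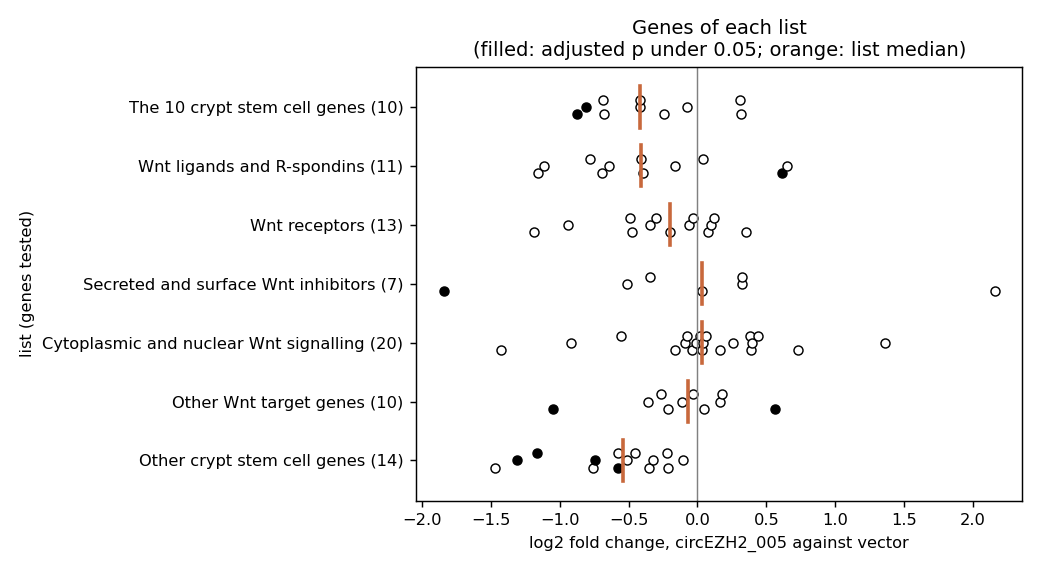
Log2 fold change of circEZH2_005 against vector (x axis) for the tested genes of each list (y axis), with filled points for an adjusted p under 0.05 and orange lines for list medians. The 14 other crypt stem cell genes are all left of 0, and the 20 cytoplasmic and nuclear components lie on both sides of it.

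Markers of other cells differed between the same samples. Single markers are counted as called by edgeR, which called 2.69% of all genes tested higher and 0.986% lower. The summed CPM of 7 leukocyte markers was 55.7, 167 and 68.4 in the vector samples and 374, 298 and 227 in the circEZH2_005 samples, with none of the 7 at 0 in any sample and 1 of 7 called higher. Vector 2 had the highest leukocyte sum of its group, and it was the lowest vector sample for 5 of the 10 genes (Lgr5, Lgr4, Smoc2, Lrig1 and Znrf3) and the highest for the other 5. The 7 epithelial markers also summed higher with circEZH2_005, at 8790, 10971 and 9582 CPM against 7727, 7271 and 7651 CPM in the vector samples, and 1 of 7 was called higher. The 6 markers of proliferating cells summed to between 1288 and 1459 CPM in the vector and between 1218 and 1586 CPM in the circEZH2_005 samples, with 0 of 6 called.

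Paneth cells, the neighbours of the stem cell at the crypt base, had 6 markers that summed to between 3760 and 6504 CPM in the vector and between 2336 and 4072 CPM in the circEZH2_005 samples, and 0 of 6 were called. All 6 had a negative log2 fold change, with a median of -0.59, against -0.42 for the 10 genes. Enterocyte markers summed to between 10624 and 12574 CPM and between 10901 and 20048 CPM, with 1 of 7 called higher. Goblet cell markers ran from 4969 to 6447 CPM and from 5962 to 7669 CPM, with 1 of 6 called higher. Enteroendocrine markers (226 to 240 CPM against 221 to 232 CPM) and tuft cell markers (21.3 to 24.2 CPM against 19.0 to 24.1 CPM) overlapped, with none called. Markers of fibroblasts and smooth muscle were few, at 3.80 to 6.80 CPM and 1.87 to 8.30 CPM. The 3 endothelial markers summed to 0.635 to 1.53 CPM and 2.65 to 5.50 CPM, and 2 of the 3 had a count of 0 in at least 1 sample. Only 1 of them, Pecam1, had enough counts to be tested, and it was called higher. The part of these markers in the values of the 10 genes was not tested.

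**Figure D5:**
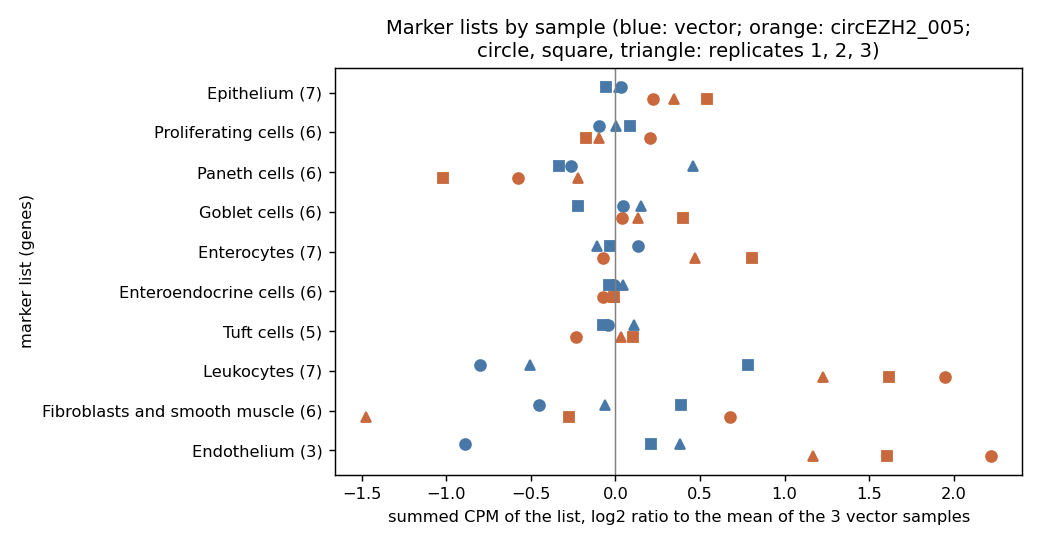
Summed CPM of each marker list in single samples, as the log2 ratio to the mean of the 3 vector samples (x axis), with blue points for vector and orange points for circEZH2_005. Leukocyte, endothelial and epithelial sums are higher in all 3 orange samples, and the sums of proliferating cells overlap.

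The 10 genes were also expressed per 1000 counts of Epcam, an epithelial adhesion molecule, in the same library, a scale chosen after seeing the data. Lgr5 had 11.8, 9.37 and 13.9 in the vector samples and 6.35, 5.62 and 5.21 in the circEZH2_005 samples. Smoc2 had 82.2, 69.1 and 86.1 against 44.6, 34.6 and 42.7. The mean log2 differences were -1.02 for Lgr5 and -0.96 for Smoc2, and 0.15 for Axin2 and 0.17 for Rnf43, whose groups overlapped. Epcam itself had a log2 fold change of 0.16 (SE 0.10, adjusted p = 0.360 from edgeR), so this scale moved all 10 genes downwards alike. For every one of the 10 genes the sign was that of the fit on all genes.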

How the data were processed

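RNA sequencing of 6 samples was analysed, 3 vector and 3 circEZH2_005, grouped by the labels; the control columns of the table, named as a negative control, were taken as vector. The authors deposited raw counts and FPKM values per gene. Per the submitters' processing notes, Cutadapt 1.9, HISAT2 2.0.4, StringTie 1.3.4d, DESeq2 and build mm10 were used; which step used which, and whether counting used strand, are not given in the sources used here. In the deposited FPKM, 98.8% of the values of 10893 genes fitted the GENCODE M21 exon union length within 2%. Strand-blind counting would mix overlapping genes. Depth was 71506487 to 79919893 counts per sample, and the 10 genes had 167 to 172921 counts.

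Counts were filtered with filterByExpr, scaled by TMM and compared by quasi-likelihood in edgeR 4.0.16 (R 4.3.3), Benjamini-Hochberg adjusted over 18348 genes. Standard errors were taken as |log2 fold change| over √F. Alternatives were RLE factors, no filter, a stricter filter, DESeq2 1.42.0, limma 3.58.1 on log2(FPKM + 1) or log2(FPKM + 0.1) at a mean of at least 0.5 FPKM, a replicate block and each sample left out. The main fit, RLE factors, the replicate block, DESeq2 and limma with a pseudocount of 1 were run on simulated counts. The other alternatives were not. The members and lists were chosen with earlier results of these data known. Named besides the members were list genes with an adjusted p under 0.05 (at most 4 a list) and the gene of highest mean FPKM of each list.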

Additional observations from a re-analysis of the deposited data

How the results depend on the processing

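None of the 10 genes changed the sign of its log2 fold change in any of 13 alternative fits, and 0 of the 10 were called higher in any. With all genes, 493 were higher and 181 lower at the adjusted p, and 1142 and 246 by fold change and p. The members called lower were 2, and the list genes 2 higher and 6 lower. Without a filter, with 28752 genes tested, these became 132 higher and 37 lower genes, 1 member, and 0 and 3 list genes. A stricter filter gave 289 lower genes and, by fold change and p, 128. DESeq2 called 1588 higher and 701 lower genes, 4 members and 13 lower list genes. Limma on log2(FPKM + 1) called 364 lower genes, 347 and 43 by fold change and p, 1 member (Smoc2) and 0 higher list genes. With a pseudocount of 0.1 it called 323 higher and 319 lower genes, 641 and 150 by fold change and p, 1 member and 0 higher list genes. The cause of these differences was not tested.

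Samples with the same replicate number did not deviate together (correlations -0.14, -0.02 and 0.04). With 3 samples per group, and without a comparison with differently numbered samples, this cannot decide whether the numbers pair them. A fit with a replicate block called 241 higher and 36 lower genes, 1 member (Smoc2; Lgr5 had an adjusted p of 0.0970) and 0 higher list genes.

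Leaving out 1 sample gave between 26 and 1098 higher and 2 and 334 lower genes, between 915 and 1495 and between 199 and 343 by fold change and p, 0 to 3 members, and 0 to 2 higher and 0 to 8 lower list genes. Of the list genes named as most abundant, Kremen1 changed sign with limma (-0.037 with a pseudocount of 1, -0.049 with 0.1), and leaving out 1 sample moved it between -0.075 and 0.098 and Ctnnb1 between -0.048 and 0.038. Sums of FPKM in place of CPM moved no marker list beyond its spread. Expression per 1000 counts of Epcam was chosen after seeing the data. The 10 genes had 167 counts or more in every sample, but several list genes had few (Sfrp5 29, 41 and 45 with circEZH2_005), and 16 of the 91 list genes with a row were not tested.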
